A study of Mus musculus with 4 samples.

Results

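The 9 genes described here encode secreted proteins and are Lcn2, Wfdc18, Csn3, Sned1, Gzmd, Bpifb9b, Cytl1, Agt and Bche. They were chosen from the readout itself, as secreted-protein genes whose signal was higher in Hmhi cells with EGF than in starved Hmhi cells. They are represented by 15 of the 45101 probe sets and are 9 of the 18193 genes that the platform annotation names singly. Because the values chose the genes, the differences below are descriptions and none was tested. The cells were melan-a, an immortalised line of mouse melanocytes, the pigment cells of skin and hair. Hmhi-MYC-TA cells, Hmhi-Miz1 kd cells (labelled pS-Miz1) and Hmhi cells were each kept for 14 days with EGF at 100 ng/ml in the starvation medium, and Hmhi cells were also starved for 14 days with no EGF named. The starvation medium was DMEM with 10% dialyzed serum and antibiotics, and it does not list the TPA and cholera toxin of the growth medium. There was 1 array for each of the 4 conditions, so each difference sets 1 array against 1 array and has no replicate check. What Hmhi and MYC-TA stand for, and whether each line is 1 clone, is not given in the labels.

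Secreted proteins are made on ribosomes docked at the endoplasmic reticulum, enter it through a signal peptide at their amino end, and leave the cell through the Golgi. EGF acts through the EGF receptor, a tyrosine kinase that signals to ERK, PI3 kinase and STAT proteins. Several of the genes are known from other tissues: lipocalin 2 from the acute-phase response, kappa-casein from milk, angiotensinogen and butyrylcholinesterase from blood plasma, and granzyme D from cytotoxic lymphocytes.

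Levels are given as log2 signals throughout, with a median over probe sets of 6.66 on each array. That median was taken as the lower limit of dependable signal, so that a fold that involves a lower level is limited by background. Each gene is given by the probe set with the highest mean, among those annotated to it alone, unless another is named. Zbtb17, which encodes Miz-1, read 8.71 in MYC-TA, 9.08 in the array labelled Miz1 kd, 8.72 in Hmhi with EGF and 8.73 in starved Hmhi, and 6.78, 6.72, 6.50 and 6.50 on its second probe set in the same order. On neither set was the array with that label below Hmhi with EGF, and directions for that array are those of the array as labelled. Myc read 9.78 in MYC-TA, 10.79 in the array labelled Miz1 kd, 10.60 in Hmhi with EGF and 10.64 in starved Hmhi. MYC-TA was thus its lowest array, and what that means for the MYC-TA label was not tested. Of 12 melanocyte markers, 8 or 9 were above the median on every array, with Sox10 between 12.96 and 13.37, while Tyr, Ednrb and Trpm1 were below it on all 4. In MYC-TA 5 of the 9 that passed the level filter were at least 2-fold lower than in starved Hmhi (4.91% of all genes were) and 2 higher (8.33%). Against Hmhi with EGF, 1 of the 9 was at least 2-fold lower in MYC-TA, Slc45a2 (1.65% of all genes were), and 0 higher (1.3%). Tyr, the gene of tyrosinase, read 4.99 in MYC-TA, 5.08 in the array labelled Miz1 kd, 5.63 in Hmhi with EGF and 4.62 in starved Hmhi. In such whole-culture RNA, fewer cells that express a gene and less of its RNA per cell cannot be told apart.

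With EGF, all 9 genes were at least 2-fold higher in Hmhi cells than in starved Hmhi cells, a direction that the rule for choosing them fixes. Across 11461 genes that passed the level filter, 7.98% were that much higher and 4.96% that much lower, and nothing is read from the members' count. The smallest of the 9 differences was 2.46 for Agt and the largest 6.76 for Lcn2, with a median of 4.22 against 0.006 over all genes. In the array labelled Miz1 kd all 9 were at least 2-fold lower than in Hmhi with EGF (2.5% of 11394 genes were) and 0 at least 2-fold higher (0.29%), with a median difference of -2.12 against 0.018 over all genes. In MYC-TA 7 of the 9 were at least 2-fold lower than in Hmhi with EGF (1.65% of 11534 genes were) and 0 higher by that much (1.3%), with a median of -1.16 against 0.045. Of the 915 genes at least 2-fold higher with EGF, 16.4% were at least 2-fold lower in the array labelled Miz1 kd than in Hmhi with EGF. Only 0.656% were that much higher there, and the median was -0.216. In MYC-TA 10.5% of the 915 were at least 2-fold lower and 1.75% higher, with a median of -0.287. These 3 comparisons share the Hmhi EGF array, and the rule looked at all 3. Every one of the 9 passed their level filter through its level in that array. The technical SD between probe sets of a gene was 0.32, 0.22 and 0.25 in the 3 comparisons, in that order, and does not hold the spread between cultures.

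Lcn2 encodes lipocalin 2, which binds the iron-carrying siderophores of bacteria and is induced in acute-phase responses. It read 10.79 in MYC-TA with EGF, 7.60 in the array labelled Miz1 kd with EGF, 12.08 in Hmhi with EGF and 5.33 in starved Hmhi. Only the starved array was below the median, and the 3 EGF arrays were spread over more than 4 log2 units. Against starved cells the difference with EGF was 6.76 (108-fold), the highest of 11461 genes, and its size is limited by background. The array labelled Miz1 kd was 22.3-fold lower than Hmhi with EGF, and only 2 of 11394 genes were lower in rank. MYC-TA was 2.46-fold lower than Hmhi with EGF. All of these values come from 1 probe set.

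Wfdc18 encodes a small protein of the WAP four-disulfide family, whose members include inhibitors of secreted proteases. Its signal was 13.07 in MYC-TA, 9.71 in the array labelled Miz1 kd, 13.39 in Hmhi with EGF and 8.27 in starved Hmhi. All 4 arrays were above the median, and MYC-TA and Hmhi with EGF lay far above the other 2. The array labelled Miz1 kd lay 12.8-fold below Hmhi with EGF, whereas MYC-TA lay 0.32 below it in log2 terms, a difference short of 2-fold. Its single probe set has the suffix _s_at, which marks a set that can match more than 1 transcript.

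The promoter windows of Lcn2 and Wfdc18 are shown because, of all genes at or above the median in Hmhi with EGF, Wfdc18 had the 4-array pattern nearest to that of Lcn2. Both are RefSeq windows of build GRCm38.p6, from 250 bases before the start of transcription to 50 after it, printed in the direction of the gene. The Lcn2 window is chr2:32387690-32387989 on the minus strand and the Wfdc18 window is chr11:83708754-83709053 on the plus strand. Capitals mark matches to the motifs searched, which were TTGCNNAA for C/EBP in Lcn2, at position -216 from the start, and TATAAA in Wfdc18, at position -31.
Lcn2: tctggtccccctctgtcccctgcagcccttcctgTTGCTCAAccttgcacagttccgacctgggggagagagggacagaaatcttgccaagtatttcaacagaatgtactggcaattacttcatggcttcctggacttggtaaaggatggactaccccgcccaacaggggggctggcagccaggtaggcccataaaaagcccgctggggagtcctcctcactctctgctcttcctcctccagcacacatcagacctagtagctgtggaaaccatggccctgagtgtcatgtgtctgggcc
Wfdc18: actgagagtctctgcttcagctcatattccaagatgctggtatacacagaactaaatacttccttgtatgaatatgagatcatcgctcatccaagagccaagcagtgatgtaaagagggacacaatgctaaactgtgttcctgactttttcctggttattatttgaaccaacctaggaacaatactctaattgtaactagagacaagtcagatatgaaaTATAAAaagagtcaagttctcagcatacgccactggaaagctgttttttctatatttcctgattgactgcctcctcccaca
The windows have 56.3% and 39% G and C in that order, and share none of the motifs searched.

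Bpifb9b belongs to the BPI-fold family, which includes lipid-binding proteins of saliva and airway fluid and, more distantly, bactericidal proteins. Its 2 probe sets placed the arrays in the same order. The first read 9.08 in MYC-TA, 5.69 in the array labelled Miz1 kd, 10.67 in Hmhi with EGF and 7.71 in starved Hmhi. The second read 9.55, 4.00, 11.08 and 8.02 in the same order. On both sets the array labelled Miz1 kd was the lowest of the 4 arrays, below starved cells too, and the only one under the median. It was lower than Hmhi with EGF by 31.5-fold on the first set and 135-fold on the second, both limited by background. Against starved cells the log2 difference was -2.02 on the first set and -3.02 on the mean of both sets. MYC-TA was 3.01-fold lower than Hmhi with EGF on the first set, the largest such difference among the 9 genes.

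Gzmd encodes granzyme D, a serine protease of cytotoxic granules in mouse. On its main probe set it read 6.08 in MYC-TA, 6.03 in the array labelled Miz1 kd, 7.51 in Hmhi with EGF and 3.24 in starved Hmhi. Only Hmhi with EGF was above the median, so the size of each of its differences is limited by background. Against Hmhi with EGF it was 2.69-fold lower in MYC-TA and 2.79-fold lower with the Miz1 kd label. Those arrays differed from each other by 0.053. Its second set read 5.75, 5.35, 7.13 and 3.19 in the same order of arrays, with Hmhi with EGF again the only one above the median. A probe set annotated to both Gzme and Gzmd read 10.57, 9.39, 10.88 and 5.52 in that order. On that shared set MYC-TA was 0.31 below Hmhi with EGF, and the array labelled Miz1 kd 1.48 below. Gzmd and Gzme are closely related copies that share this probe set, so their signals are uncertain as single genes.

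**Figure D1:**
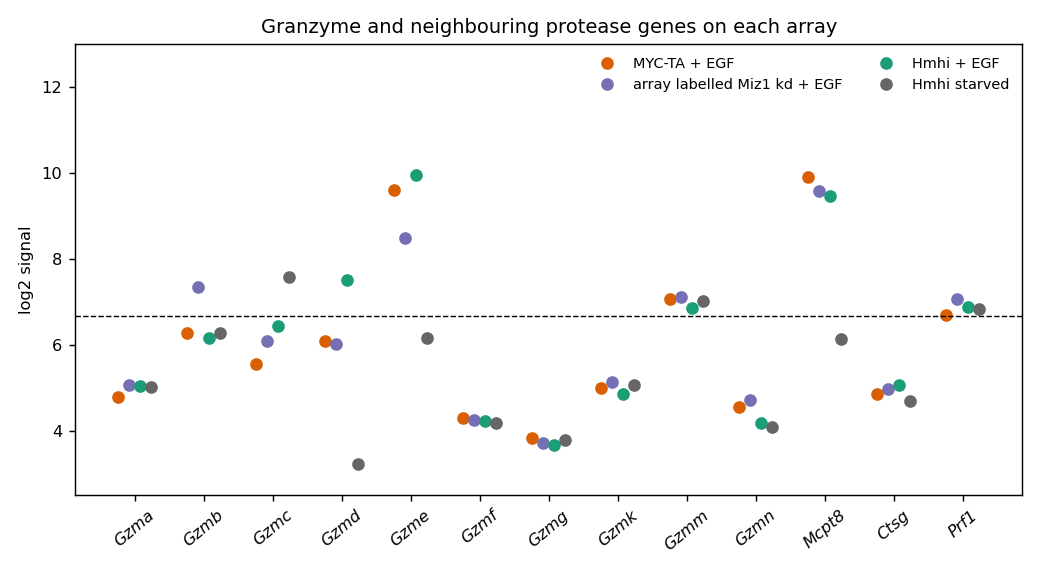
Log2 signal of the granzyme genes and of Mcpt8, Ctsg and Prf1 on the 4 arrays (points; dashed line, array median of 6.66). Gzmd, Gzme and Mcpt8 are higher on all 3 EGF arrays than in starved Hmhi, while Gzmf, Gzmg and Gzmn stay under 5 on every array.

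Csn3 encodes kappa-casein, the milk protein that keeps casein micelles in suspension. Its main probe set read 8.65 in MYC-TA, 7.67 in the array labelled Miz1 kd, 9.08 in Hmhi with EGF and 4.86 in starved Hmhi. Each EGF array was above the median and the starved array below it. The array labelled Miz1 kd was 2.66-fold lower than Hmhi with EGF, and MYC-TA was 0.43 lower in log2 terms. Its second probe set stayed between 4.04 and 4.31 on the 4 arrays, near the bottom of their range, and showed no such pattern. The Csn3 result therefore rests on 1 of 2 probe sets.

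Sned1 encodes a matrix glycoprotein with nidogen, sushi and EGF-like domains. It read 10.66 in MYC-TA, 10.25 in the array labelled Miz1 kd, 11.81 in Hmhi with EGF and 6.04 in starved Hmhi. The other 2 EGF arrays lay close together and far above starved cells. They were 2.22-fold and 2.94-fold lower than Hmhi with EGF in that order, and still 24.6-fold and 18.6-fold above starved cells, which read below the median.

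Cytl1 encodes a small cytokine-like protein first described in human blood progenitor cells and expressed in cartilage. It read 8.95 in MYC-TA, 6.11 in the array labelled Miz1 kd, 10.11 in Hmhi with EGF and 6.38 in starved Hmhi. The array labelled Miz1 kd and starved Hmhi were both below the median and 0.28 apart, a difference that background leaves without a size. MYC-TA was 2.23-fold lower than Hmhi with EGF, and the array labelled Miz1 kd 16-fold lower.

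Agt encodes angiotensinogen, the precursor that renin and angiotensin-converting enzyme cut to angiotensin II. Its levels were 9.10 in MYC-TA, 8.13 in the array labelled Miz1 kd, 10.25 in Hmhi with EGF and 7.79 in starved Hmhi, all above the median. The array labelled Miz1 kd was 0.34 above starved cells, less than the technical SD of 0.42 between probe sets in that comparison. It was 4.36-fold lower than Hmhi with EGF, and MYC-TA was 2.23-fold lower. Bche encodes butyrylcholinesterase, a plasma enzyme that splits choline esters. On its brightest set it read 8.56 in MYC-TA, 7.64 in the array labelled Miz1 kd, 9.60 in Hmhi with EGF and 6.31 in starved Hmhi. Set against Hmhi with EGF it was 2.04-fold lower in MYC-TA, and 3.88-fold lower with the Miz1 kd label. Both other Bche sets were below the median on all 4 arrays, with Hmhi EGF differences from starved cells of 0.40 and 1.19. Against Hmhi with EGF these sets stood at -0.07 and -0.80 in MYC-TA, and at -0.24 and -0.92 in the array labelled Miz1 kd. With the mean of all probe sets Bche was at -0.63 in MYC-TA and Csn3 at -0.70 in the array labelled Miz1 kd, both short of 2-fold. The counts at least 2-fold lower than Hmhi with EGF were then 6 of 9 in MYC-TA and 8 of 9 with the Miz1 kd label. The share of all genes was not counted with that mean.

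**Figure D2:**
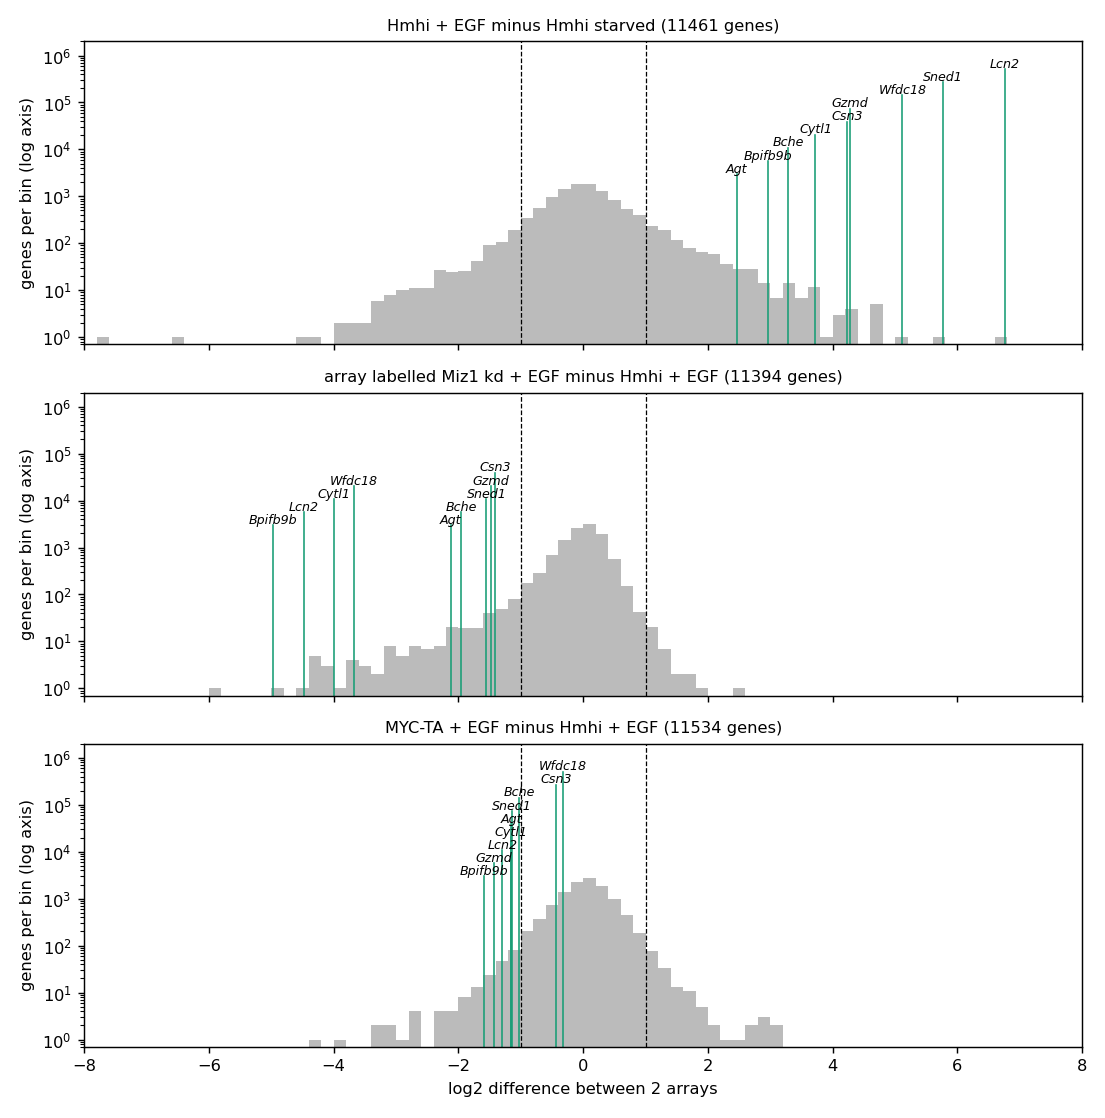
Histograms of the log2 difference of all genes past the level filter in 3 comparisons (counts per bin on a log axis; dashed lines, 2-fold), with the 9 genes marked by green lines whose height has no meaning. All 9 lie right of the upper 2-fold line with EGF and left of the lower one in the array labelled Miz1 kd, and 7 lie left of it in MYC-TA.

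The 9 genes differed in how far below Hmhi with EGF they lay in the other 2 EGF arrays. This distance was put as the percent of the EGF difference, Hmhi with EGF minus starved, that was absent from an array, so that 100% is the starved level. In the array labelled Miz1 kd the values ran between 26.9% for Sned1 and 168% for Bpifb9b, with a median of 66.3%. Lcn2, Wfdc18, Bpifb9b, Cytl1, Agt and Bche lacked at least 50%, 6 of the 9 against 22.5% of the 915 genes at least 2-fold higher with EGF, with Cytl1 at 107% and Agt at 86.2%. Csn3 and Gzmd lacked 33.4% and 34.6%. In MYC-TA the range was 6.28% for Wfdc18 to 53.9% for Bpifb9b, with a median of 31.1%, and 1 of the 9, Bpifb9b, lacked at least 50%, against 18.5% of the 915 genes. Over those 915 genes the median percent absent was 17.5% in MYC-TA and 13.4% in the array labelled Miz1 kd. The rule that chose the 9 compared genes by this fall, so nothing is read from their counts or medians beside the 915. The 915 also include every gene at least 2-fold higher with EGF, while the smallest log2 difference among the 9 was 2.46. All of these percents use the Hmhi EGF and starved arrays, so a deviation of either moves every one of them. The starved level was below the median for Lcn2, Csn3, Sned1, Gzmd, Cytl1 and Bche, and the level in the array labelled Miz1 kd for Gzmd, Bpifb9b and Cytl1, so that background limits these percents and they are not ranked across genes.

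Wfdc18, above the median on all arrays, was at 6.28% absent in MYC-TA and 71.8% in the array labelled Miz1 kd. Gzmd was at 33.4% and 34.6% in the same order on its main set, which has the suffix _x_at. Its second set gave 34.9% and 45.2%, and the set shared with Gzme 5.71% and 27.7%. Sned1 was at 19.9% and 26.9%. Lcn2 was at 19.2% in MYC-TA and 66.3% in the array labelled Miz1 kd.

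**Figure D3:**
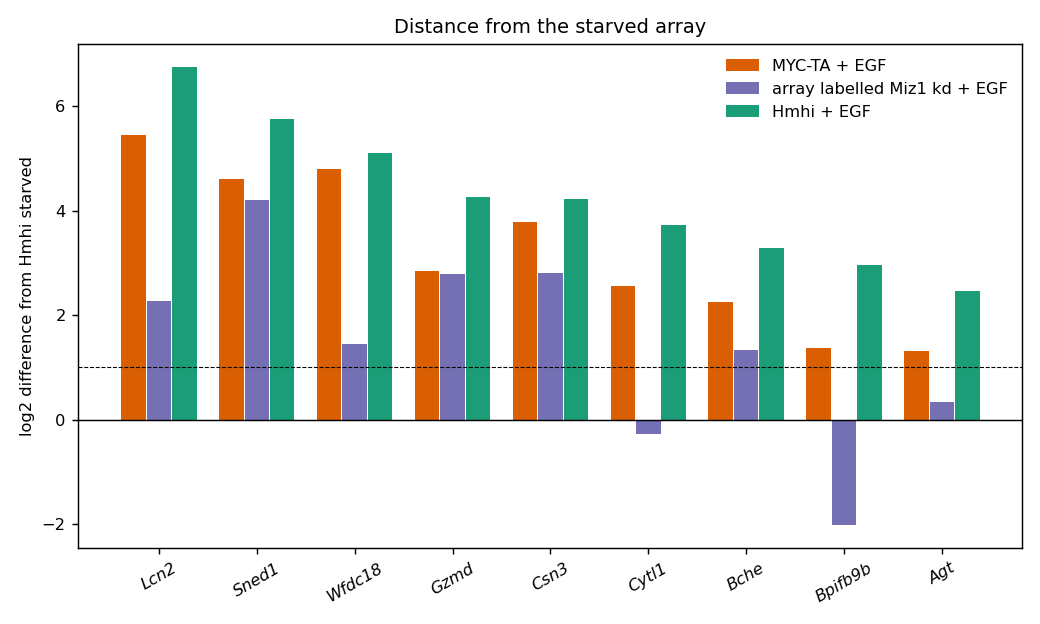
Log2 difference of each EGF array from the starved array for the 9 genes, ordered by the Hmhi EGF bar (dashed line, 2-fold). The bar of the array labelled Miz1 kd is below 0 for Cytl1 and Bpifb9b, and the MYC-TA bar is above 2-fold for all 9 genes.

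Set directly against starved cells, MYC-TA was at least 2-fold higher for the 8 genes that passed the level filter (8.33% of 11598 genes were) and at least 2-fold lower for 0 (4.91%). Gzmd, below the median on both arrays, was higher by 2.84. Lcn2 again had the highest difference of all genes in that comparison, at 5.46, and Wfdc18 and Sned1 followed at ranks 3 and 5 with 4.79 and 4.62. The array labelled Miz1 kd was at least 2-fold higher than starved cells for Lcn2, Wfdc18, Csn3, Sned1 and Bche, 5 of the 7 that passed (7.45% of 11455 genes), and at least 2-fold lower for Bpifb9b (7.42%). Sned1, at 4.21, ranked 4 there, while Lcn2, at 2.28, ranked 102. Starved levels of Lcn2, Csn3, Sned1, Cytl1 and Bche were below the median. Background therefore limits the size of their differences from starved cells, and the ranks with it. Between the arrays with MYC-TA and with the Miz1 kd label, MYC-TA was at least 2-fold higher for Lcn2, Wfdc18, Bpifb9b and Cytl1 (6.72% of 11613 genes were) and at least 2-fold lower for 0 (4.26%). The 4 differences were 3.19, 3.35, 3.38 and 2.84. Csn3, Agt and Bche were 0.98, 0.97 and 0.92 higher in MYC-TA, and Sned1 0.40 higher, which is under the technical SD of 0.41.

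Genes related to the 9 by family or pathway were listed, and the counts that follow leave the 9 out. Over all 12 lists, 141 of 268 genes on the array passed the filter with EGF, of which 23 were at least 2-fold higher than in starved cells (16.3%, against 7.98% of all genes) and 12 at least 2-fold lower (8.51%, against 4.96%). In the array labelled Miz1 kd 6 of 137 were at least 2-fold lower than in Hmhi with EGF (4.38%, against 2.5%) and 1 higher (0.73%, against 0.29%). In MYC-TA 2 of 141 were lower and 2 higher (1.42% each, against 1.65% and 1.3%). The lists were compiled with earlier results of these data known, so these shares are not support for any of them. The same shares of all genes stand beside each list below, where percents are of the listed genes that passed.

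Most other lipocalin genes were below the median. Of 21 genes of lipocalins and of Lcn2 handling on the array, 6 passed the filter with EGF and 2 were at least 2-fold higher (33.3%). Those were Bdh2, a dehydrogenase linked to siderophore synthesis, higher by 1.15, and Slc22a17, which encodes a receptor for lipocalin 2, higher by 1.03. None of the 6 was 2-fold lower in MYC-TA or in the array labelled Miz1 kd, set against Hmhi with EGF. In the acute-phase list 3 of 17 were at least 2-fold higher with EGF (17.6%) and 2 lower (11.8%). Slpi, a leukocyte protease inhibitor, was at 2.48, and Cebpd, a transcription factor of that response, at -2.41. In the array labelled Miz1 kd 2 of 17 were at least 2-fold lower (11.8%), which were Chil1 at -1.39 and Lbp at -1.05. In MYC-TA 1 of 19 was (5.26%), Hpx at -1.11. Markers of macrophages, which also express lipocalin 2, were above the median for 5, 5, 5 and 3 of 12 genes in MYC-TA, the array labelled Miz1 kd, Hmhi with EGF and starved Hmhi. Their summed signal was 11.35, 12.18, 12.59 and 12.26 on the log2 scale in that order, and their part in the Lcn2 result was not tested. Of its genes, Cd68 was higher with EGF by 1.52 than in starved cells and Csf1r lower at -2.66. Lyz2, the gene of lysozyme, read 10.74, 11.89, 12.37 and 11.87 in that order, so MYC-TA was its lowest array, at -1.63 against Hmhi with EGF. Adgre1, C1qa, C1qb, C1qc, Tyrobp, Itgam and Mrc1 were below the median on all 4 arrays.

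Among WAP-domain genes 8 besides Wfdc18 passed the filter with EGF, and Slpi was the one at least 2-fold higher. Slpi read 11.97 in MYC-TA, 10.49 in the array labelled Miz1 kd, 11.06 in Hmhi with EGF and 8.58 in starved Hmhi, so that MYC-TA was its highest array. No gene of that list other than Wfdc18 was 2-fold lower in the array labelled Miz1 kd. Among milk genes Tfrc, the transferrin receptor, was higher with EGF by 1.86 and Xdh lower by a log2 difference of -2.24, and no other of the 6 that passed was 2-fold apart. The 4 other caseins, Csn1s1, Csn1s2a, Csn1s2b and Csn2, were named after their values were seen and lay between 3.77 and 5.90 on all arrays, below the median. In the list of the prolactin and STAT5 axis, which drives casein genes in the mammary gland, 0 of 16 were at least 2-fold higher with EGF. Socs3, a feedback inhibitor, was the 1 lower, at -1.50. The 22 genes of that list with a value do not include Prlr, the gene of the prolactin receptor. Epithelial markers, as of mammary or skin epithelium, were above the median for 5, 4, 4 and 4 of 12 genes in MYC-TA, the array labelled Miz1 kd, Hmhi with EGF and starved Hmhi. Their summed signal was 10.14, 10.28, 10.01 and 10.34 in that order, and their part in the Csn3 and Wfdc18 results was not tested.

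In the granzyme list Gzme and Mcpt8, a granule protease of mouse basophils, were the 2 of 8 genes at least 2-fold higher with EGF (25%). They were higher by 3.79 and 3.35, and Gzmc was lower at -1.14. Gzme read 9.59 in MYC-TA, 8.48 in the array labelled Miz1 kd, 9.94 in Hmhi with EGF and 6.15 in starved Hmhi. Mcpt8 read 9.90, 9.57, 9.47 and 6.13 in that order, so that it was at least as high in the other 2 EGF arrays as in Hmhi with EGF. Gzmb was 1.18 higher in the array labelled Miz1 kd than in Hmhi with EGF. Of 10 cytotoxic lymphocyte markers on the array, 3 were above the median on every array, and Ptprc, the pan-leukocyte marker, read between 4.09 and 4.58. Their summed signal was 9.38, 9.49, 9.39 and 9.36 in MYC-TA, the array labelled Miz1 kd, Hmhi with EGF and starved Hmhi, and their part in the Gzmd result was not tested.

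Among BPI-fold genes Lbp, which binds bacterial lipopolysaccharide, was higher with EGF by 1.74 and Bpifa2 lower at -2.40, out of 5 that passed. Of 12 nidogen-domain and related matrix genes that passed, 3 (25%) were at least 2-fold higher with EGF, Fbln1 by 2.91, Susd2 by 2.02 and Npnt by 1.13. Another 2 (16.7%) were lower, Nid2 at -1.54 and Susd1 at -1.10. In MYC-TA Tnc, the matrix protein tenascin C, was 1.25 higher than in Hmhi with EGF. The cartilage-linked list had 3 of 16 genes at least 2-fold higher with EGF (18.8%) and 4 lower (25%). Among them were Col2a1 at 2.66, Col11a1 at -1.88 and Col10a1 at -1.67. In the array labelled Miz1 kd 4 of 14 were at least 2-fold lower than in Hmhi with EGF (28.6%, against 2.5% of all genes). That was the largest such share among the 12 lists. As they were compiled with earlier results known, it is not support for this list. Col2a1 was at -3.83, Scrg1 at -3.03 and Col9a1 at -2.82, and the other was Chil1, which is also in the acute-phase list. Col2a1 and Scrg1 read 6.21 and 6.10 in that array, below the median, so background limits the size of their differences. Col2a1 and Col9a1 encode collagens of cartilage. In MYC-TA Col9a1 was 1.32 higher than in Hmhi with EGF and Matn2 lower at -1.27. Fibroblast markers above the median numbered 6, 4, 5 and 5 of 12 in MYC-TA, the array labelled Miz1 kd, Hmhi with EGF and starved Hmhi, with a summed signal of 12.48, 12.04, 12.11 and 12.35, and their part in these results was not tested. In MYC-TA Col3a1 was higher than in Hmhi with EGF by 2.48 and Dcn by 1.22, and Pdgfrb was lower at -3.27. Postn was higher with EGF by 2.24 than in starved cells, and Dcn lower at -1.16, and in the array labelled Miz1 kd Postn was lower than in Hmhi with EGF at -1.30. Col1a1, Lum, Thy1, Fap and Prrx1 were below the median on all 4 arrays.

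In the renin-angiotensin list Agtrap, a receptor-associated protein, and Ctsd, a lysosomal protease, were higher with EGF by 1.21 and 1.11, and 0 of 7 were 2-fold apart in the other comparisons with Hmhi EGF. Agtr1a, the main angiotensin II receptor, was named after its values were seen and read between 4.97 and 5.05 on all arrays. In the cholinergic list 3 of 7 genes were at least 2-fold higher with EGF (42.9%) and 1 lower (14.3%). Chrnb1, a nicotinic receptor subunit, was higher by 1.78 and Chka, choline kinase, by 1.65, and Tg was lower at -1.35. The secretory pathway list had 4 of 37 genes at least 2-fold higher with EGF (10.8%). These were Pdia6, Ssr2, Sec11a and Pdia4 at 1.27, 1.21, 1.09 and 1.04. The list had a median of 0.14 with EGF, -0.092 in MYC-TA and -0.21 in the array labelled Miz1 kd. It had 0 genes 2-fold apart in the last 2 comparisons.

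Likeness of pattern was measured as the Euclidean distance between log2 levels centred on each gene's mean, over 4 arrays, against 11174 other genes at or above the median in Hmhi with EGF. Gene models with no proper name were left out, 2 of them nearer to Lcn2 than Spsb4 and 0 for Csn3. The nearest named genes to Lcn2 were Wfdc18 at 1.17, Ptgfrn at 2.02, Cyria at 2.03, Pramel18 at 2.25 and Spsb4 at 2.25. Ptgfrn read 8.16 in MYC-TA, 4.06 in the array labelled Miz1 kd, 8.37 in Hmhi with EGF and 4.16 in starved Hmhi. The nearest to Csn3 were Gzme at 0.38, Rlbp1 at 0.49, Pgf at 0.60, Sdc1 at 0.67 and Spsb4 at 0.68. Pgf, placental growth factor, is also secreted and read 9.98, 9.44, 10.01 and 6.21 in the same order. With 4 points a small distance is a description of these arrays alone.

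By the RefSeq gene table of assembly GRCm38.p6, the 9 genes lie on 7 chromosomes, with Lcn2 and Bpifb9b both on chromosome 2 and Csn3 and Cytl1 both on chromosome 5. The 3 nearest measured protein-coding genes on each side gave 54 neighbours, of which 29 passed the filter with EGF. Of these, 4 exceeded starved cells by 2-fold or more (7.98% of all genes did) and 2 lay as far below them (4.96%). These are named after their values were seen. Gzme and Mcpt8 neighbour Gzmd, and Dnm1, at 1.28, and 1110008P14Rik, at 1.75, neighbour Lcn2. The lower ones were Ppp1r7 beside Sned1 and 2310022B05Rik beside Agt, at -1.30 and -1.27. In the array labelled Miz1 kd 1 of 30 neighbours, Gzme, was at least 2-fold lower than in Hmhi with EGF (2.5% of all genes were). In MYC-TA 0 of 30 were (1.65%). Next to Wfdc18, its family member Wfdc17 was 0.33 higher with EGF, and Wfdc21, below the median on all arrays, stood at -0.14. Next to Gzmd, the granzyme genes Gzmg, Gzmn and Gzmf read between 3.68 and 4.71 on all arrays.

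Promoter windows of 8 of the 9 genes matched the RefSeq table by symbol, and Csn3 was not among them. The motifs searched on both strands were TTCNNNGAA for STAT, TTGCNNAA for C/EBP, TGANTCA for AP-1, CACGTG for the E-box and TATAAA for the TATA box, and by name the longer kappaB motif and interferon-response element. TATAAA was in 3 of the 8 windows, those of Agt, Bpifb9b and Wfdc18, and in 13.6% of all 32851 windows. The STAT and kappaB motifs were in the Agt window only, and in 8.30% and 20.7% of all windows. The C/EBP motif was in Lcn2 only, and in 10.8% of all windows. The AP-1, E-box and interferon-response motifs, in 7.81%, 7.15% and 3.44% of all windows, were in 0 of the 8. The windows of Agt, the only one with 3 motifs, and of Bpifb9b, the gene furthest below Hmhi with EGF in the array labelled Miz1 kd, are shown with motifs in capitals. They are chr8:124569657-124569956 on the minus strand and chr2:154306994-154307293 on the plus strand.
Agt: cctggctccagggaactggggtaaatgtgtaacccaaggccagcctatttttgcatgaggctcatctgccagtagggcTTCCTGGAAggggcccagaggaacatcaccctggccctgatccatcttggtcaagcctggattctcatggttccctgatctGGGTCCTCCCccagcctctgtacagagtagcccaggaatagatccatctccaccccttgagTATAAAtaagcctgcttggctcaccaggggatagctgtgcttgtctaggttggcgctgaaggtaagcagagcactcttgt
Bpifb9b: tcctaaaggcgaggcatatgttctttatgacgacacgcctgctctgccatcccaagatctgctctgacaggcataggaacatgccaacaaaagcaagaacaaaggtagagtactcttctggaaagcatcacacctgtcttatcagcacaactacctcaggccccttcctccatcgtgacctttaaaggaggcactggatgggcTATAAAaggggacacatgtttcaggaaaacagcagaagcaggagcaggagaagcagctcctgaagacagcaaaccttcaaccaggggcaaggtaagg
In Agt the STAT, kappaB and TATA matches start at positions -172, -91 and -30, the kappaB match on the opposite strand, and in Bpifb9b the TATA match starts at -47. A match is only a run of letters, and a window without one says nothing of the factor.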

How the data were processed

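Per the labels' protocols, total RNA (100 ng) was turned into biotinylated cRNA with the IVT-Express kit and hybridised to Affymetrix arrays, 1 for each of 4 conditions. The deposited values range between 2.94 and 15.12 and were read as log2 signals. The log base, summarization and normalization are not given in the sources used here. Sorted, the authors' columns differ by at most 0.004, so their distributions had been made equal and a change common to all genes would not show.

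The 2016 platform annotation named 1 gene for 34945 probe sets, several for 932 and none for 9160, with 64 controls set aside. Of a gene's probe sets, the one with the highest mean over the 4 arrays stood for it. The level filter asked that the brighter array of a comparison reach its own median over sets other than controls. Without replicates there is no test and no p-value, and the number of arrays limits the precision. The technical SD was pooled over genes with at least 2 passing sets.

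All probe sets of the 9 genes were reported. Each list gave up to 4 genes with the largest differences in the first 3 comparisons among those 2-fold apart, and the 5 nearest patterns were named for Lcn2 and Csn3, leaving out gene models with no proper name. The genes and lists were chosen with earlier results of these data known. Alternatives were quantile normalization, a common median, loess with span 0.4, no level filter, a 75th percentile filter, the mean of all sets, only plain _at sets and a 4-fold threshold. Python 3.11.15, pandas 2.3.3, numpy 2.4.6, statsmodels 0.14.6 and matplotlib 3.10.9 were used.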

Additional observations from a re-analysis of the deposited data

How the results depend on the processing

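No paired analysis was possible because there was a single array per condition, so none could be left out. Quantile normalization, a common median, loess and no level filter left every count within 1.5 times and moved no member by more than the technical SD. Of 488 member values over the alternatives, 20 moved by more. Sign changes were counted only for the percents and for differences of at least 2-fold, and 0 of these changed sign. With the mean of all probe sets, whose other sets sit near background for Csn3 and Bche, the EGF differences of Csn3 and Bche were 2.15 and 1.62, their differences in the array labelled Miz1 kd -0.70 and -1.04, and that of Bpifb9b -6.03. Against starved cells, members at least 2-fold higher in the array labelled Miz1 kd numbered 2 with the 75th percentile filter and 3 with the mean of all sets, plain _at sets or a 4-fold threshold, against 5. With the 75th percentile filter 0 were at least 2-fold lower, against 1. Plain _at sets leave out Lcn2 and Wfdc18, and 2 members were then at least 2-fold higher in MYC-TA than in the array labelled Miz1 kd, against 4. At 4-fold, relative to Hmhi with EGF, 0 members were lower in MYC-TA and 5 with the Miz1 kd label. For the listed genes the 75th percentile filter gave 7 lower with EGF, 0 higher in the array labelled Miz1 kd, 1 higher and 1 lower in MYC-TA, and 5 lower in MYC-TA than in the array labelled Miz1 kd. It gave 7 higher and 7 lower in the array labelled Miz1 kd than in starved cells. In MYC-TA against Hmhi with EGF, the mean of all sets gave 1 listed gene higher and plain _at sets 4 lower. The share of all genes was not counted under the alternatives, the 4-fold threshold included. These re-counts are therefore set only against the main counts, and nothing else is read from them. Fewer genes pass the stricter filter, a 4-fold threshold asks for larger differences, and plain _at sets leave out Lcn2 and Wfdc18. The cause of the changes among the listed genes with the mean of all sets and plain _at sets was not tested. Signal below the array median limits every fold that involves it.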
